A study of Mus musculus with 6 samples.

Results

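The 10 genes described here act in iron and haem recycling, and were measured as polyadenylated RNA in tumour-associated macrophages (TAM) from mouse liver tumours. The genes are Cd163, Slc48a1, Hmox1, Blvrb, Slc40a1, Fth1, Ftl1, Trf, Tfrc and Slc11a1, and were found in the table by gene symbol. The set was drawn up with earlier results of these data known. All 10 were found among the 55291 gene symbols measured, and all 10 passed the filter on low values. The 2 groups were TREM2+ TAM, with 3 libraries, and TREM2- TAM, with 3 libraries, both from mouse hepatocellular carcinoma and named for TREM2, a surface receptor of myeloid cells that binds lipids. The strain, sex and age of the mice, the tumour model, the surface gate of the sort and any pooling of animals are not stated in the labels. The labels also leave unsaid if each replicate was its own animal. The p-values therefore reflect only variation among these 6 libraries, part of which may be technical.

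Macrophages of liver and spleen take up aged red cells and free haemoglobin, break down the haem and return its iron to the blood. CD163 binds haemoglobin carried by haptoglobin, and HRG1 (Slc48a1) moves haem out of the phagolysosome. Haem oxygenase 1 (Hmox1) opens the haem ring to give biliverdin, carbon monoxide and iron. Blvrb encodes a reductase of flavins and of some forms of biliverdin. NRAMP1 (Slc11a1) moves iron out of the phagosome, ferritin made of heavy (Fth1) and light (Ftl1) chains stores it, and ferroportin (Slc40a1) is the exporter that returns it to plasma. There transferrin (Trf) carries it to cells that bear the transferrin receptor (Tfrc). In the liver, Kupffer cells are the resident macrophages known for this work.

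Transcripts of Fth1, Ftl1, Slc40a1 and Tfrc are known to be controlled after transcription by iron-responsive elements, hairpins bound by the iron regulatory proteins when iron is scarce. In a 5′ UTR such a hairpin holds back translation, and in the 3′ UTR of Tfrc it protects the transcript. The 5′ UTR elements are shown because they set apart members whose RNA level and protein level can part ways, and RNA alone was measured. Those of Tfrc are shown beside them and act on the transcript itself. UTRs of GENCODE M21 transcripts were searched on the transcript strand for the loop CAGTGN closed by 5 base pairs, G-T pairs allowed, with a C directly before the stem. The 6 loop bases are in capitals.
Fth1, 5′ UTR, chr19:9982733-9982759, plus strand: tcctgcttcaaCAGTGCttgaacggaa
Ftl1, 5′ UTR, chr7:45459780-45459806, minus strand: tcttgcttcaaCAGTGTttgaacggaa
Slc40a1, 5′ UTR, chr1:45925466-45925492, minus strand: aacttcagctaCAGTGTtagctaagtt
Tfrc, 3′ UTR, chr16:32631220-32631246, plus strand: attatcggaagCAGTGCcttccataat
Tfrc, 3′ UTR, chr16:32631599-32631625, plus strand: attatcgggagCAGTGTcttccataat
Tfrc, 3′ UTR, chr16:32631664-32631690, plus strand: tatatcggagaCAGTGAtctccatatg
Tfrc, 3′ UTR, chr16:32631711-32631737, plus strand: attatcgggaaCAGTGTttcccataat
Positions are on mm10. Of genes with an annotated 5′ UTR 0.136% held a match there, and of genes with a 3′ UTR 0.608% did. No match was found in the UTRs of the other 6 members, which says only that these letters are not in these annotated stretches.

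Levels are TPM, here the deposited length-scaled signal with each library rescaled to a total of 1000000, so that levels of different genes can be set side by side. Reads recovered from those values came to between 12652629 and 17329972 in the TREM2+ libraries and between 11614117 and 20157493 in the TREM2- libraries. The libraries differed in composition: transcripts of the Gm10800 repeat family took 0.704% to 17.5% of TPM in TREM2+ and 0.427% to 24.6% in TREM2- libraries, and mitochondrially encoded transcripts took 3.78% to 10.02% in TREM2+ and 2.42% to 12.3% in TREM2- libraries. Trem2, which checks the labels, stood at 37.0 ± 5.51 TPM in TREM2+ and 19.5 ± 2.28 TPM in TREM2- libraries (SD, n = 3 each), with no overlap, and did not pass (limma adjusted p = 0.0855; exact permutation p = 0.1, two-sided, the smallest that 3 against 3 libraries allow). All 8 macrophage markers were present in every library, among them Csf1r at 257 to 390.0 TPM in TREM2+ and 172 to 370 TPM in TREM2- libraries. Neutrophil markers were present as well, at a summed 16241 to 20412 TPM in TREM2+ and 20412 to 23567 TPM in TREM2- libraries, so neither group was free of other cells' RNA. In such bulk libraries, fewer cells of a type and less RNA per cell cannot be told apart.

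The comparison asks how iron and haem handling transcripts of TREM2+ TAM differ from those of TREM2- TAM. Transcripts for haem breakdown (Hmox1, Blvrb), iron export (Slc40a1), the heavy ferritin chain (Fth1) and transferrin (Trf) were more abundant in the TREM2+ libraries, by 2.17-fold to 4.92-fold in mean TPM. Those of the transferrin receptor stood at about the same level in both groups. Of the 10 members, 5 were higher at an adjusted p under 0.05 in limma, 0 were lower and 5 did not pass. Of all 13788 genes tested, 2.05% were higher and 0.37% lower by that rule. In 9 of the 10 members every TREM2+ library lay above every TREM2- library, which was the case for 9.07% of all genes tested, and no member lay below throughout, as 7.62% of all genes did. With no filter on low values, Hmox1, Fth1 and Trf did not pass (adjusted p of 0.0614, 0.208 and 0.157 in limma), and Slc40a1 and Blvrb did. The median log2 fold change was 1.31 over the members and -0.09 over all genes tested.

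**Figure D1:**
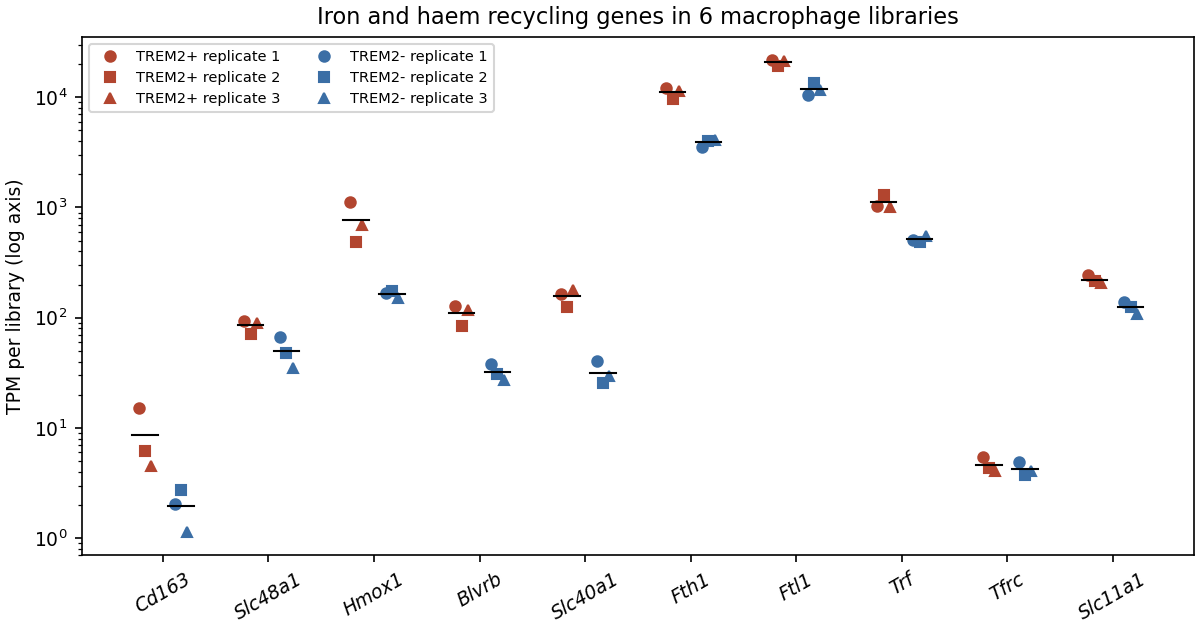
TPM of the 10 members (log axis) in each library, with TREM2+ replicates in red to the left and TREM2- replicates in blue to the right; symbols mark the replicate number and black lines the mean of 3 libraries. In 9 of 10 genes the red points lie above the blue ones, and for Tfrc they overlap.

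Ferritin made up most of the members' RNA. Ftl1 was the most abundant, between the 5th and 6th highest gene of each TREM2+ library and between the 5th and 11th of each TREM2- library, and Fth1 followed at the 11th to 16th place in TREM2+ and the 27th to 32nd in TREM2- libraries. The chains together took 92.4% to 93.4% of the members' summed TPM in TREM2+ and 93.5% to 95.2% in TREM2- libraries. That sum was 3.67%, 3.14% and 3.52% of all TPM in TREM2+ replicates 1, 2 and 3, against 1.49%, 1.85% and 1.67% in TREM2- replicates 1, 2 and 3. In both groups the order continued with Trf, Hmox1 and Slc11a1. Below these it differed: Slc40a1, Blvrb and Slc48a1 followed at means of 156, 110.0 and 85.0 TPM in TREM2+ libraries, and Slc48a1, Blvrb and Slc40a1 at 49.9, 32.2 and 31.7 TPM in TREM2- libraries. Neighbours whose libraries overlapped were Trf and Hmox1, Slc40a1 and Blvrb, Blvrb and Slc48a1, and Cd163 and Tfrc in TREM2+, and Slc48a1 and Blvrb, and Blvrb and Slc40a1 in TREM2-.

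Uptake came first in the route of haem. Cd163 (ENSMUSG00000008845.9, chromosome 6, 124304656 to 124330527), the haemoglobin scavenger receptor, had 15.3, 6.19 and 4.51 TPM in TREM2+ replicates 1, 2 and 3, against 2.03, 2.73 and 1.14 TPM in TREM2- replicates 1, 2 and 3. The groups did not overlap, but TREM2+ replicate 1 stood at more than the other TREM2+ libraries, and the level was low in all 6. The log2 fold change was 1.58 ± 0.41 (SE of the limma fit, here and below) with adjusted p = 0.105, so Cd163 did not pass, and without TREM2+ replicate 1 it was 1.12 with adjusted p = 0.259. It rested on 643, 241 and 158 reads in TREM2+ and 99, 111 and 40 reads in TREM2- libraries. Slc48a1 (ENSMUSG00000081534.3, chromosome 15, 97778520 to 97792692), the haem exporter of the phagolysosome, had 94.0, 70.7 and 90.2 TPM in TREM2+ libraries, against 66.4, 48.3 and 35.1 TPM in TREM2- libraries. Its groups were separated only narrowly, with a log2 fold change of 0.79 ± 0.27 that did not pass (adjusted p = 0.233).

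Both haem breakdown genes among the members rose. Outside the members, Blvra (0.39 ± 0.20) and Hmox2 (0.32 ± 0.20) did not pass (limma adjusted p of 0.503 and 0.612). In both of these, every TREM2+ library lay above every TREM2- library. Hmox1 (ENSMUSG00000005413.8, chromosome 8, 75093621 to 75100589), the rate-limiting enzyme of haem breakdown, had 1114, 487 and 693 TPM in TREM2+ replicates 1, 2 and 3, against 169, 176 and 151 TPM in TREM2- replicates 1, 2 and 3. The TREM2- libraries lay close together (coefficient of variation 7.58%), while the TREM2+ libraries spread widely (41.8%) with replicate 1 highest. The log2 fold change was 2.12 ± 0.30 with adjusted p = 0.00975, and 68 of the 13788 genes tested had a larger one. The call was lost without TREM2- replicate 3 (2.06, adjusted p = 0.0602).

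Blvrb (ENSMUSG00000040466.16, chromosome 7, 27447978 to 27466144), a reductase of biliverdin and flavins, had 129, 83.8 and 117 TPM in TREM2+ libraries, against 38.2, 31.0 and 27.4 TPM in TREM2- libraries. Every TREM2+ library was at more than any TREM2- library, with replicate 2 the lowest of TREM2+ as it was for Hmox1. The log2 fold change was 1.73 ± 0.24 with adjusted p = 0.00936, and Blvrb passed with any 1 of the 6 libraries left out, as did only Slc40a1 among the other members.

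Slc40a1 (ENSMUSG00000025993.10, chromosome 1, 45908068 to 45926523), which encodes the only known cellular exporter of iron, had the largest log2 fold change of the members. It stood at 165, 124 and 179 TPM in TREM2+ replicates 1, 2 and 3, against 40.4, 25.4 and 29.4 TPM in TREM2- replicates 1, 2 and 3. The lowest TREM2+ library was still well above the highest TREM2- library. The log2 fold change was 2.27 ± 0.25 with adjusted p = 0.00503, a 4.92-fold ratio of the mean TPM, and 50 of all genes tested had a larger one. Leaving out each library in turn gave log2 fold changes of 2.13 to 2.45.

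Of the storage genes, the heavy ferritin chain passed and the light chain did not. Fth1 (ENSMUSG00000024661.7, chromosome 19, 9980598 to 9985098), the chain with the ferroxidase centre, had 12197, 9681 and 11429 TPM in TREM2+ replicates 1, 2 and 3, against 3518, 4047 and 4112 TPM in TREM2- replicates 1, 2 and 3. Both groups were tight and far apart, with a log2 fold change of 1.51 ± 0.23 and adjusted p = 0.0135. The call was lost without TREM2+ replicate 1 (1.44, adjusted p = 0.0737) and without TREM2- replicate 3 (1.55, adjusted p = 0.077). It was also lost with the replicate number as a block in the limma fit (adjusted p = 0.0709). Ftl1 (ENSMUSG00000050708.16, chromosome 7, 45457944 to 45459884), the chain that favours mineral formation in the core, had 21653, 19387 and 21437 TPM in TREM2+ libraries, against 10437, 13527 and 11681 TPM in TREM2- libraries. The groups did not overlap, and with a log2 fold change of 0.82 ± 0.25 Ftl1 did not pass (adjusted p = 0.165). Its value is uncertain, since 50.9% of its 50-base stretches also occur in 15 other annotated genes, most of them pseudogenes. Those genes' rows summed to at most 2.61% of the TPM of Ftl1 in any library. The largest, Ftl2-ps, stood at 307, 281 and 284 TPM in TREM2+ and 140.2, 200.4 and 153 TPM in TREM2- libraries. Of 5 rows named as ferritin pseudogenes 4 passed the filter on low values. For Fth1 1.59% of stretches were shared, with a single pseudogene.

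Trf (ENSMUSG00000032554.15, chromosome 9, 103204001 to 103230444), the plasma iron carrier, had 1037, 1308 and 1020.35 TPM in TREM2+ replicates 1, 2 and 3, against 509, 482 and 556 TPM in TREM2- replicates 1, 2 and 3. The libraries of each group lay close together, and the log2 fold change was 1.11 ± 0.21 with adjusted p = 0.0318. It did not pass with any 1 of the 6 libraries left out. Those fits gave log2 fold changes of 0.997 to 1.18 and limma adjusted p-values of 0.0703 to 0.119. Trf also did not pass with quantile normalization or on the deposited values without rescaling (limma adjusted p of 0.0549 and 0.284). The same held with the replicate number as a block in the limma fit (adjusted p = 0.0802). Hepatocytes are the main source of transferrin in the body. Hepatocyte markers summed to 401, 134 and 146.02 TPM in TREM2+ replicates 1, 2 and 3, against 562, 85.5 and 94.3 TPM in TREM2- replicates 1, 2 and 3. These sums overlapped between the groups, with replicate 1 the highest of each, and 0 of 9 hepatocyte markers tested passed. Their part in the level of Trf was not tested. Trf overlaps the same-strand gene model Gm20425 in GENCODE M21, which holds 58.5% of its 50-base stretches. Gm20425 is not among the gene symbols measured, so reads of the pair cannot be told apart.

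Tfrc (ENSMUSG00000022797.16, chromosome 16, 32608920 to 32632794), the receptor that takes up iron-laden transferrin, had 5.50, 4.35 and 4.08 TPM in TREM2+ libraries, against 4.90, 3.71 and 4.02 TPM in TREM2- libraries. The groups overlapped, with a log2 fold change of 0.11 ± 0.23 (adjusted p = 0.911) and a 95% interval from -0.41 to 0.64. Slc11a1 (ENSMUSG00000026177.11, chromosome 1, 74375195 to 74386062), the phagosomal metal transporter, had 243, 215 and 205 TPM in TREM2+ libraries, against 139.8, 125 and 107 TPM in TREM2- libraries. Its groups were separate, and with a log2 fold change of 0.83 ± 0.21 it did not pass (adjusted p = 0.0889). With 6 of the alternative scalings and tests and 1 added later it did pass (adjusted p = 0.00674 to 0.0311).

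**Figure D2:**
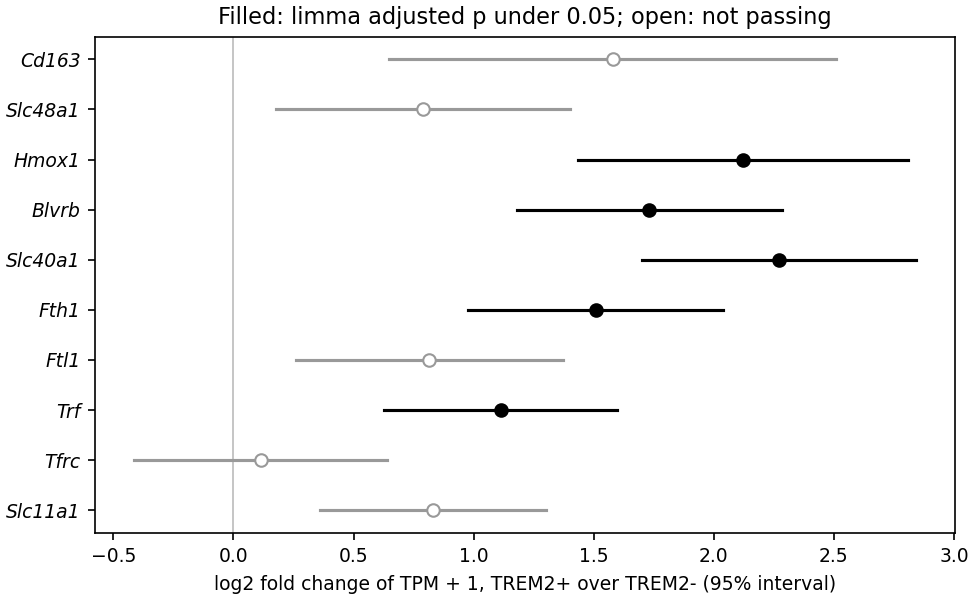
Log2 fold change of TPM + 1, TREM2+ over TREM2-, for each member, with the 95% interval of the limma fit as a line. Filled points passed at an adjusted p under 0.05 (Hmox1, Blvrb, Slc40a1, Fth1, Trf), and the interval of Tfrc alone spans 0.

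Ratios within a library do not depend on how the library was scaled. The Slc40a1 over Tfrc ratio of export to import receptor was 30.04, 28.4 and 43.9 in TREM2+ replicates 1, 2 and 3, against 8.25, 6.85 and 7.30 in TREM2- replicates 1, 2 and 3. All TREM2+ values were higher, by 4.50-fold on average. The Fth1 over Ftl1 ratio was 0.563, 0.499 and 0.533 in TREM2+ libraries, against 0.337, 0.299 and 0.352 in TREM2- libraries, again with no overlap and 1.62-fold higher. The Slc40a1 over Fth1 ratio was 0.0135, 0.0128 and 0.0157 in TREM2+ libraries, against 0.0115, 0.00628 and 0.00714 in TREM2- libraries, with TREM2- replicate 1 close to the TREM2+ values. The Hmox1 over Blvrb ratio was 8.65, 5.81 and 5.90 in TREM2+ libraries, against 4.42, 5.66 and 5.53 in TREM2- libraries, where only TREM2+ replicate 1 and TREM2- replicate 1 stood apart from the rest. Each of the 4 ratios had p = 0.1 in the two-sided exact permutation test, also after Benjamini-Hochberg adjustment over the 4, which is the smallest this design allows.

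**Figure D3:**
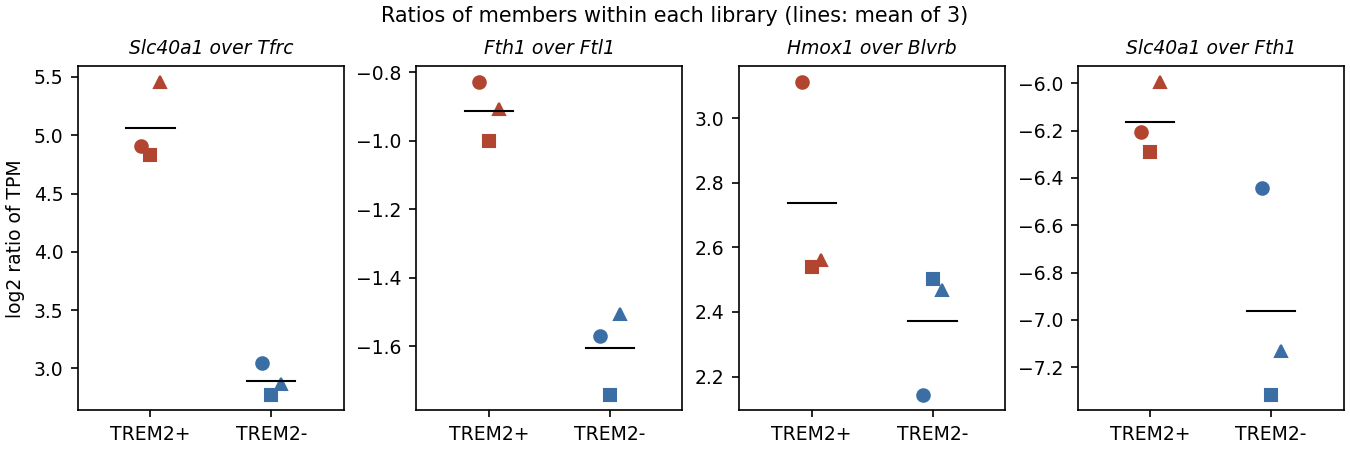
Log2 ratio of TPM of a pair of members in each library, TREM2+ left and TREM2- right, with circles, squares and triangles for replicates 1, 2 and 3 and lines for the mean of 3. The Slc40a1 over Tfrc panel shows the widest gap, a difference of 2.17 in log2 ratio, and the Hmox1 over Blvrb panel the narrowest, 0.37.

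The members did not all follow the same pattern over the 6 libraries. As a description, the root mean square difference between centred log2 levels was smallest for Ftl1 and Slc11a1 (0.19), Slc48a1 and Slc11a1 (0.20), and Blvrb and Fth1 (0.25), and largest for Slc40a1 and Tfrc (1.10). TREM2+ replicate 1 held the highest level of 8 members, TREM2+ replicate 3 that of Slc40a1 and TREM2+ replicate 2 that of Trf. By the same measure, among 5526 other named genes with a mean of at least 10 TPM, the profile of Slc40a1 was nearest to those of Rgl1 (0.17), Clec1b (0.19) and C6 (0.21). That of Hmox1 was nearest to Cd59a (0.19), Timd4 (0.22) and Folr2 (0.23). That of Cd163 was nearest to Timd4 (0.29), Fabp7 (0.30) and Sdc4 (0.31). C6, Folr2 and Timd4 are also in the list of Kupffer cell markers used here.

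**Figure D4:**
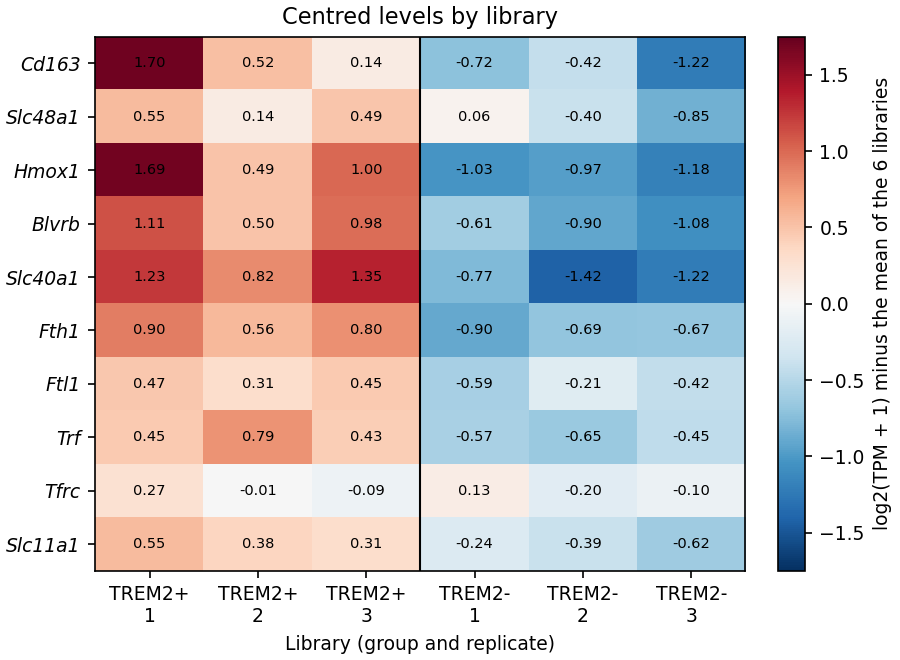
Log2(TPM + 1) of each member minus its mean over the 6 libraries, with TREM2+ libraries left and TREM2- libraries right of the black line. Hmox1 and Cd163 reach 1.69 and 1.70 in TREM2+ replicate 1, and the row of Tfrc stays between -0.20 and 0.27.

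Markers of other cell types moved between the groups as well, and their part in the members' differences was not tested. Kupffer cell markers, of which 8 of 9 passed as higher, summed to 2069.5, 1105 and 1302 TPM in TREM2+ replicates 1, 2 and 3, against 333, 237 and 204 TPM in TREM2- replicates 1, 2 and 3, with Clec4f at 512, 267 and 350.0 TPM in TREM2+ and 71.6, 30.9 and 31.4 TPM in TREM2- libraries. TREM2+ replicate 1 was the highest, as it was for 8 members, Tfrc among them, and for the summed endothelial markers. Slc40a1 was highest in TREM2+ replicate 3 and Trf in TREM2+ replicate 2. Endothelial markers, of which 8 of 10 passed as higher, summed to 413, 295 and 324 TPM in TREM2+ and 58.4, 41.1 and 28.9 TPM in TREM2- libraries. Among the markers that passed, Cdh5 (Kupffer cell list) and Tek (endothelial list) were under 1 TPM in every TREM2- library. Both passed the filter on low values through TREM2+ libraries alone. Monocyte markers ranged over 3330.1 to 29644 TPM in TREM2+ and 12330 to 73276 TPM in TREM2- libraries, with 0 of 6 higher and 1, Ly6c2, lower. Of 10 neutrophil markers 1, Camp, was lower, 0 were higher, and 5 had a log2 fold change above 0. Basophil markers were lower in 3 of 6 and dendritic cell markers in 1 of 7, and of 7 T and NK cell markers and 6 B and plasma cell markers 0 passed. The summed levels were 29.8 to 38.8 TPM in TREM2+ and 128 to 269 TPM in TREM2- libraries for basophils, and 829 to 989 TPM in TREM2+ and 1342 to 3195 TPM in TREM2- libraries for T and NK cells. None of the lists' defining genes was at 0 in all libraries.

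Erythroid markers summed to 4231, 26390 and 7636 TPM in TREM2+ replicates 1, 2 and 3, against 8625, 9992 and 30662 TPM in TREM2- replicates 1, 2 and 3, which overlapped. Of the 6 tested, 0 passed, and all 6 had a log2 fold change below 0. Their part in the level of Hmox1 was not tested.

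Of 73 other iron and haem genes tested in 9 lists, 10 were higher, 0 were lower and 63 did not pass, with a median log2 fold change of 0.18. Receptors for red cell and apoptotic cell clearance held 8 of the 10. In that list 8 of 12 rose, with a median of 1.80. Among them were the Kupffer cell lectin Clec4f (3.11 ± 0.37), the adhesion receptor Vcam1 (2.52 ± 0.33), and the scavenger receptor of sinusoidal endothelium Stab2 (2.29 ± 0.29), with adjusted p-values of 0.00569 to 0.00749 in limma. Axl (1.72 ± 0.25), a receptor for apoptotic cells, also passed with any 1 of the 6 libraries left out, as these 3 did. Marco, Cd36, Stab1 and Timd4 passed too, but in only 4, 5, 3 and 2 of the 6 fits with a library removed; each was lost without TREM2- replicate 3. Clec4f, Marco, Timd4 and Stab2 are also in the Kupffer cell or endothelial marker lists. Outside that list 2 of 61 genes were higher, near the 2.05% of all genes tested, and the median was 0.06. In 13 of these 61 every TREM2+ library lay above every TREM2- library, against 9.07% of all genes tested. Of the 13, Bmp6, Slc39a8 and Epas1 were under 1 TPM in every TREM2- library. They passed the filter on low values through TREM2+ libraries alone, so the filter fixed their lack of overlap. In 3 of the 61 every TREM2+ library lay below, against 7.62% of all genes.

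Those 2 are transcription factors of this pathway. Spic, which directs the development of red pulp and other iron-recycling macrophages, had 29.5, 19.5 and 44.1 TPM in TREM2+ replicates 1, 2 and 3, against 9.64, 2.65 and 3.64 TPM in TREM2- replicates 1, 2 and 3. The groups did not overlap, and TREM2- replicate 1 was the highest of its group. The log2 fold change was 2.43 ± 0.43 with adjusted p = 0.0237, lost without TREM2+ replicate 3 (adjusted p = 0.0733) and without TREM2- replicate 3 (adjusted p = 0.12) in limma. It was also lost when libraries were rescaled without the repeat family (adjusted p = 0.0507), or without that family and mitochondrial genes (adjusted p = 0.0552), and with no filter on low values (adjusted p = 0.128). With the replicate number as a block in the limma fit, Spic did not pass either (adjusted p = 0.0672). Nr1h3, the oxysterol receptor LXRα, had 91.1, 73.2 and 83.8 TPM in TREM2+ libraries, against 34.7, 13.4 and 20.2 TPM in TREM2- libraries, with a log2 fold change of 1.91 ± 0.32 (adjusted p = 0.0194), lost without TREM2+ replicate 1, TREM2+ replicate 3 or TREM2- replicate 3 (limma adjusted p of 0.0501, 0.0615 and 0.092), and with no filter (adjusted p = 0.102). The other 10 regulators did not pass. Among these were Maff (0.87 ± 0.24), Nfe2l2, the activator NRF2 (0.55 ± 0.24), and Bach1, the haem-sensing repressor of Hmox1 (-0.23 ± 0.26).

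The rest of the iron and haem genes did not pass, 0 in either direction in each of the other 7 lists. Of haem transport and breakdown genes, Hp, the haemoglobin carrier haptoglobin, had 903, 1193 and 612 TPM in TREM2+ libraries, against 1579, 2209 and 1563 TPM in TREM2- libraries. Every TREM2+ library was below every TREM2- library, with a log2 fold change of -1.02 ± 0.30 (adjusted p = 0.15), which passed in 4 of the alternative settings. The folate and haem transporter Slc46a1 (0.84 ± 0.26) and the haem exporter Flvcr1 (-0.53 ± 0.27) did not pass. Haem synthesis genes had a median of -0.28 over 10 tested, with Urod at -0.53, Slc25a38 at -0.54 and Cpox at -0.46. The groups of these named genes overlapped. Alas1 went the other way (0.35 ± 0.23), with every TREM2+ library above every TREM2- library, and did not pass (limma adjusted p = 0.636). Mitochondrial iron genes had a median of -0.36 over 11 tested, with the outer membrane iron-sulphur protein Cisd1 at -0.68. Over both lists 17 of 21 genes had a log2 fold change below 0. It was above 0 in 2 of 10 haem synthesis genes and 2 of 11 mitochondrial iron genes, against 39.0% of all genes tested.

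Iron uptake genes had a median of 0.27 over 6 tested, led by the metal importer Slc39a8 (0.92 ± 0.28, adjusted p = 0.184), the metalloreductase Steap4 (0.92 ± 0.45) and Slc39a14 (0.47 ± 0.31). Ferritin turnover and chaperone genes had a median of 0.07 over 4 tested, with Ncoa4, the cargo receptor of ferritin autophagy, at 0.53 ± 0.23 (adjusted p = 0.372), and the iron chaperones Pcbp1 at 0.18 and Pcbp2 at -0.16. In the list of oxidases and the hepcidin axis, with a median of 0.33 over 5 tested, Bmp6, the endothelial inducer of hepcidin, stood at 1.10, 1.22 and 1.80 TPM in TREM2+ and 0.144, 0.241 and 0.159 TPM in TREM2- libraries. Bmp6 passed the filter on low values through its TREM2+ libraries alone, so the filter fixed the lack of overlap between its groups. It rested on 33, 34 and 45 reads in TREM2+ and 5, 7 and 4 reads in TREM2- libraries. The log2 fold change of 0.996 ± 0.265 did not pass (adjusted p = 0.113). Tmprss6 (-0.44 ± 0.36) and Hfe (0.34 ± 0.28) overlapped. Iron-responsive regulators had a median of 0.15 over 4 tested, with Fbxl5 at 0.55 ± 0.42 and the iron regulatory proteins themselves, Aco1 at 0.20 ± 0.22 and Ireb2 at -0.17 ± 0.23.

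**Figure D5:**
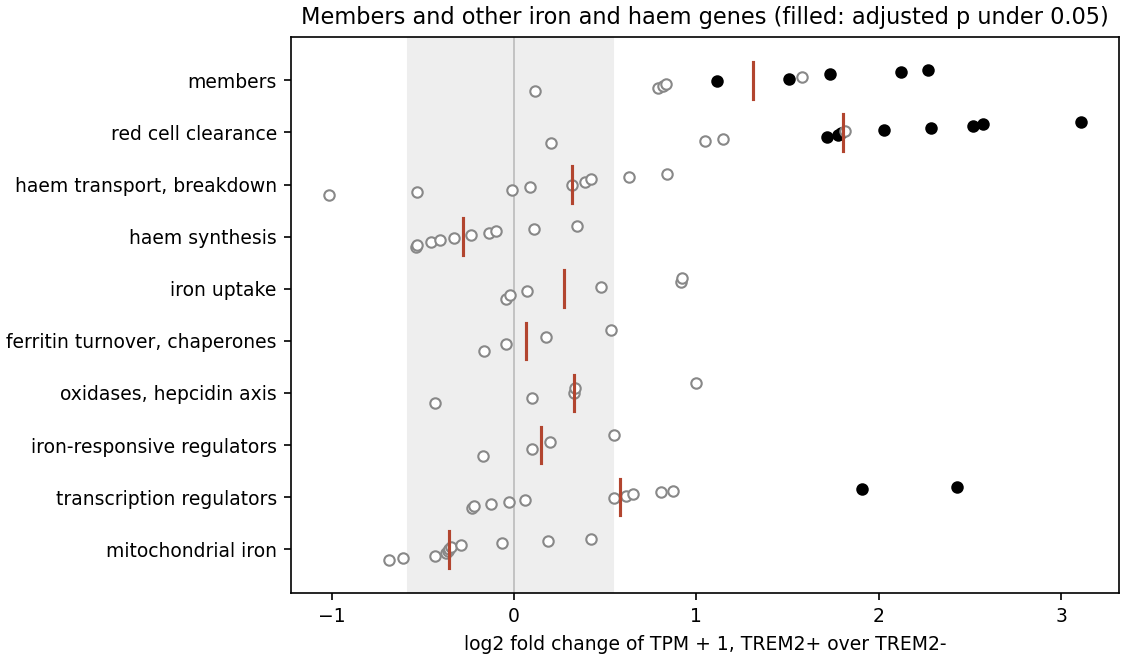
Log2 fold change of TPM + 1, TREM2+ over TREM2-, of every tested member and of every tested gene in the 9 other iron and haem lists; filled points passed at an adjusted p under 0.05, red lines are list medians and the grey band runs from the 10th to the 90th percentile of all genes tested (-0.58 to 0.54). Filled points lie in the rows of members, red cell clearance receptors and transcription regulators.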

How the data were processed

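Per the labels' protocols, TRIzol was used for RNA extraction and libraries were read in pairs on an Illumina sequencer. The submitters' processing notes list the build mm10 and the tools STAR 2.7.10a, Subread and featureCounts 2.0.3. Not given in the sources used here are annotation, strand setting and the treatment of multi-mapping reads. The deposited values are a length-scaled signal named as TPM by the authors. All 6 columns together sum to 1000000, so each library was rescaled to that total, and the planned test on TPM was kept.

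The main test was limma's moderated test (limma 3.58.1, R 4.3.3), two-sided, of log2(TPM + 1) for genes reaching a TPM of 1 in 3 or more libraries. The prior variance followed mean expression, and p-values were adjusted by Benjamini-Hochberg over all genes tested, with a threshold of 0.05; fold changes on this scale understate those of low genes. Signal times the GENCODE M21 exon length gave whole reads, within 0.01 read in all 6 libraries, for 98.7% of 36671 matched rows, and for all 10 members; reads served for depth and for voom. They carry no molecular identifiers. Overlapping and antisense genes cannot be told apart without the strand setting. Replicates of a group differed by more than counting error in every pair (chi-square per degree of freedom 89.1 to 286). The fit was tested on simulated reads.

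The members and lists were chosen with earlier results of these data known. All members were named, with up to 3 genes of smallest p from each list, any listed gene that passed, and the 3 nearest profiles of 3 members. Ly6c2, Csf1r, Nfe2l2, Bach1, Blvra, Hmox2, Epas1, Cdh5, Tek, Camp and Alas1 were named after their values were seen. Some listed genes are not reported here. Scaling without the repeat family and mitochondrial genes was an alternative added later.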

Additional observations from a re-analysis of the deposited data

How the results depend on the processing

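No member was called lower in limma under any of the 21 alternative settings, and of the member log2 fold changes only that of Tfrc turned sign, to -0.094, when libraries were centred on 5 macrophage genes. That centring put the median log2 fold change of all genes at -0.30, against -0.09 in the report, and gave 8 lower iron pathway genes; Pcbp1 (-0.0316) and Aco1 (-0.0109) turned with it, and Tmprss6 (0.0329) with library weights. The count of members called higher, 5 in the report, was 2 with no low-value filter, 8 with library weights and 0 without both libraries numbered 3, where 1345 of all genes had an unadjusted p under 0.05 and 0 an adjusted one. Leaving out each library in turn gave 2 to 4, lowest without TREM2- replicate 3, and 3 without TREM2+ replicate 1. The count of other iron and haem genes called higher, 10 in the report, was 4 with no filter, 22 with library weights, 0 without both libraries numbered 3, and 4 to 12 with each library left out, 4 without TREM2- replicate 3. Of these genes 1 was lower with quantile normalization, with library weights and with voom. Trem2 passed with library weights (0.90, adjusted p = 0.00653) and with voom (0.86, adjusted p = 0.0352). All genes called came to 976 higher and 389 lower with library weights, 443 and 171 with voom, 95 and 3 with no filter, 328 and 1410 with the macrophage centring, 396 and 121 with quantile normalization, 416 and 81 with median-of-ratios scaling, 208 and 93 on the deposited values, 284 and 109 without the repeat family, 280 and 87 without it and mitochondrial genes, and 116 and 10 with the replicate block, against 282 and 51 in the report. The cause of these shifts was not tested. Deviations of same-numbered libraries correlated at r = 0.19, -0.03 and 0.22 across genes. Replicates 1 and 3 of TREM2+, but not 2, were nearest to their own number. The repeat family took 0.704%, 5.05% and 17.5% of TPM in TREM2+ replicates 1, 2 and 3. In TREM2- replicates 1, 2 and 3 it took 0.427%, 12.9% and 24.6%. These values cannot settle if the numbers pair the libraries, and the labels state no pairing. With the replicate block 3 members and 6 other iron and haem genes were called higher, without Fth1, Trf and Spic (limma adjusted p of 0.0709, 0.0802 and 0.0672). The 4 ratios kept their direction in all their alternatives. With 3 libraries a group the number of libraries limits precision, and the lowest read count of a member was 40, for Cd163.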
